A study of Homo sapiens with 6 samples.

Results

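The 100 genes described here had the lowest shSQLE to shControl ratios in U2OS cells once collagens, laminins, integrins, the main interferon-induced families, chemokines, interleukins and a few other families were set aside by symbol. They were chosen by their own expression values in this contrast. Levels were read as CPM, a gene's count divided by the total of its library and scaled to a common total, not corrected for gene length. A gene entered when its mean shControl CPM was at least 5 and its highest shSQLE library lay below its lowest shControl library. Of 19937 genes, 10545 reached that level and 1365 of those were also separated. Symbols beginning with COL, LAM, ITG, IFI, OAS, MX, ISG, HERC, CCL, CXCL, IL, MMP, HLA-, ABC, HSP or PDI, together with FN1 and SQLE, removed 73 genes, and the 100 lowest ratios among the remaining 1292 were kept.

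SQLE encodes squalene epoxidase, an enzyme of cholesterol synthesis, and the comparison asked how silencing it changed the transcriptome of U2OS, an established human osteosarcoma (OSA) line. Lentiviral pGIPZ vectors carried either a short hairpin RNA against SQLE (genotype SQLE-shRNA, shSQLE, 3 libraries) or a scrambled hairpin (shControl, 3 libraries), and both lines were made stable by puromycin selection and grown in McCoy's 5a medium with serum. Each group therefore rests on 1 cell line and 1 vector, and the study chose 1 of 4 SQLE hairpins without the sources used here saying which sequence it was. The labels do not tie the replicates to separate cultures, so their spread may be technical, and in bulk RNA fewer cells of a kind and less RNA per cell cannot be told apart.

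The set was named for lying outside matrix, interferon and cytokine genes, and the data went against that name in part. Amelotin (AMTN), CEMIP, CCN3, SPOCK1 and NID2 belong to the matrix, DDX60, SAMD9 and APOL6 are interferon-stimulated, and TNFRSF11B, PTGS2 and TNFAIP3 are cytokine-linked. None of these symbols starts with a removed prefix. Of the 100 members, 36 stood in at least 1 of 13 hand-written gene lists and 64 in none. The symbol filter had removed 30 genes with ratios at or below that of the 100th member, so the set is the strongest falls by this rule and not a class of function.

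As background, a cell's secretory output passes through the endoplasmic reticulum (ER), where proteins fold, and then leaves continuously or from stored granules. Matrix proteins, growth factors and their binding proteins, semaphorins and proteases all take this route, and together they shape the surroundings of a mesenchymal tumour cell. Interferon-stimulated genes form a separate antiviral program, and cyclooxygenase-2 opens the route from arachidonic acid to prostaglandins.

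SQLE itself stood at 95.6, 143 and 150 CPM in the shControl libraries and at 16.6, 14.6 and 16.5 CPM in the shSQLE libraries. Library totals ran from 12212378 to 14393292 counts. Among lineage markers, VIM and SPARC were abundant in both groups (mean VIM 2900 and 3170 CPM, mean SPARC 477 and 382 CPM in shControl and shSQLE). RUNX2 (15.6 and 12.4 CPM), COL1A1 (12.3 and 7.64 CPM) and SPP1 (6.41 and 7.11 CPM) were detected in every library, SP7 and IBSP had 0 counts in every library, and ALPL, BGLAP and COL1A2 had at most 6. The leukocyte markers PTPRC and CD3E were at 0, CD68 had at most 11 counts, and the endothelial markers PECAM1, VWF and CDH5 had at most 15 counts in a library. Among epithelial markers the keratin KRT18 was high in both groups (677 and 740 CPM), EPCAM was at 3.9 and 5.01 CPM and CDH1 had at most 2 counts. Of the 3 shControl libraries, replicate 1 stood apart, with a chi-square per gene of 53.9 and 63.8 against the other shControl libraries, which differed from each other by 2.83.

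All 100 members passed the expression filter of the transcriptome-wide test, the quasi-likelihood test of edgeR, adjusted by Benjamini-Hochberg over 12450 genes. Of them, 97 were called lower at an adjusted p of 0.05, where 2.84% of all genes tested were called lower and 0.369% higher. The test used the contrast that chose the members, so nothing is read from that share. The 3 members not called were SEMA3C, JAKMIP2 and SERINC2. The members made up 27.4% of the 354 genes called lower, a further 54 called genes had been removed by symbol, and 203 lay outside both. The median log2 fold change was -1.61 over the members and -0.01 over all genes tested.

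**Figure D1:**
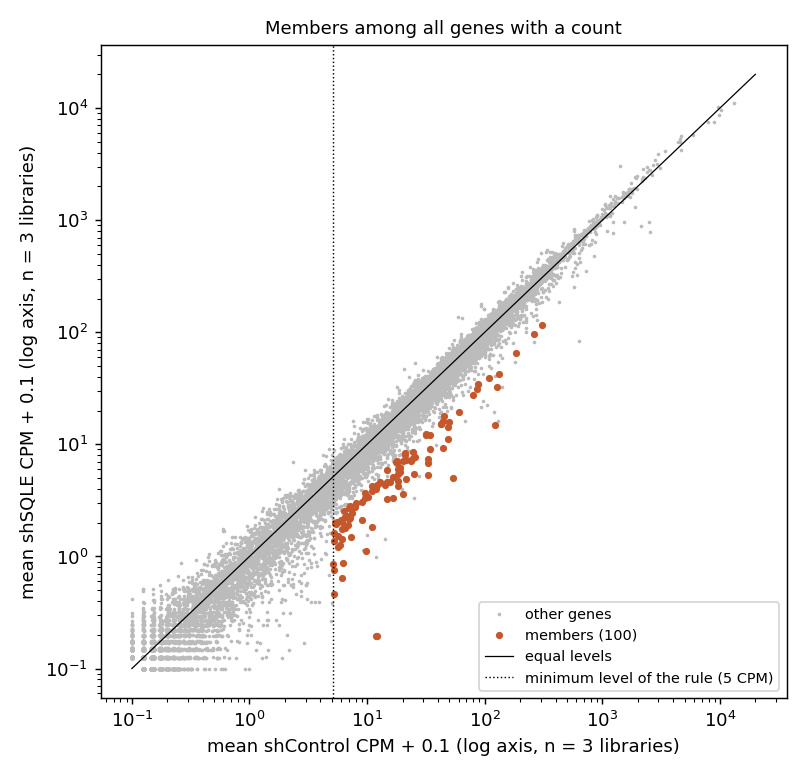
Mean shSQLE CPM against mean shControl CPM, each plus 0.1 and on log axes, for every gene with a count (grey) and for the 100 members (orange), with the line of equal levels and the 5 CPM minimum. The members run along the lower edge of the cloud from 5.03 to 306 CPM in shControl, and a pair of them, AMTN and KLHDC7B, overlap far below the others.

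As a share of the shControl mean, shSQLE levels had a median of 31.9% over the members and reached 39.5% at the 100th. Only 5 members lay below 10%, 11 lay between 10% and 20%, 27 between 20% and 30%, and 57 between 30% and 40%, so most of the set sat close to its upper limit. Mean shControl CPM had a median of 15.1, with 37 members below 10 and 7 above 100. The lowest shControl value exceeded the highest shSQLE value by a median factor of 2.14, by more than 2 in 63 members and by less than 1.5 in 8. Together the members took 0.259%, 0.329% and 0.335% of all counts in the shControl libraries and 0.1%, 0.0884% and 0.098% in the shSQLE libraries. At the limit, RAB27B (12.9, 21.3 and 19.4 CPM against 6.76, 5.78 and 8.59) and BMP2 were the last genes inside at 39.5% each. The first genes outside were PLA2G4A, which also rounds to 39.5%, SLC1A1 at 39.6% and STRA6 at 39.8%.

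**Figure D2:**
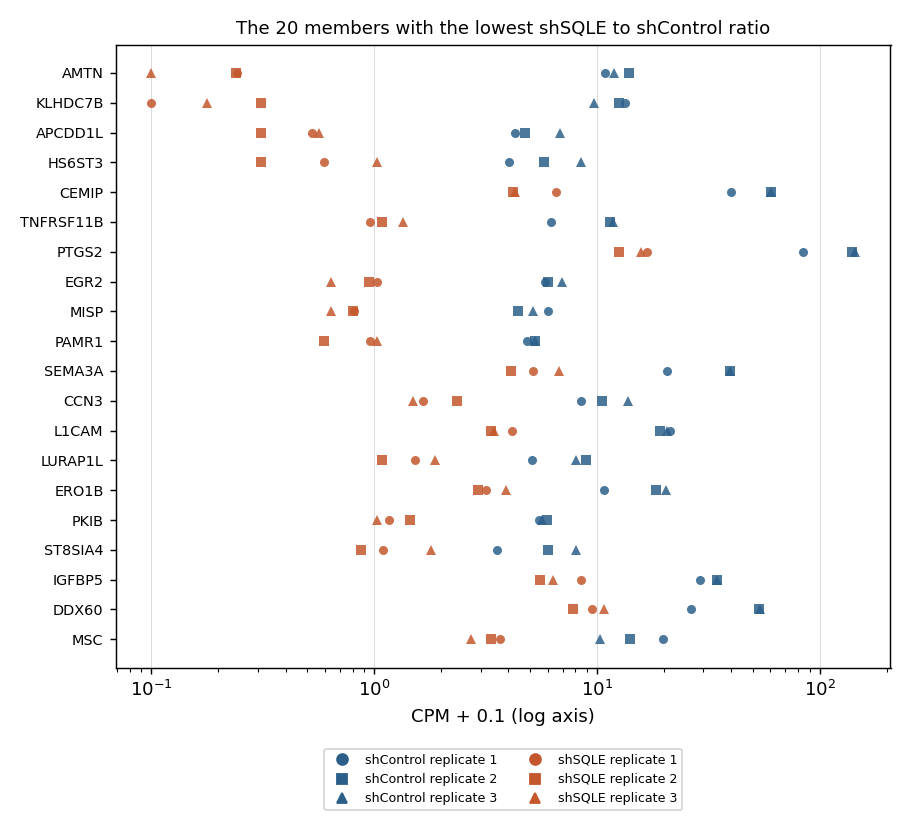
CPM plus 0.1 on a log axis in each of the 6 libraries for the 20 members with the lowest ratios, shControl in blue and shSQLE in orange, with a marker shape per replicate. Every orange point lies left of every blue point of its gene, as the rule required, and the distance narrows from AMTN at the top to MSC at the bottom.

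Matrix proteins, matrix enzymes and glycan-modifying enzymes were the largest role group, with 15 members and a median of 25.8% of control. AMTN, a protein of the enamel-facing basal lamina linked to mineralization, was at 10.8, 13.8 and 11.8 CPM in shControl and at 0.142, 0.141 and 0 CPM in shSQLE. These were 132, 198 and 154 counts against 2, 2 and 0, so the shSQLE libraries were at the floor of 3 counts and AMTN was at least 55.3-fold lower. CEMIP, needed for hyaluronan breakdown, was at 39.6, 60 and 60.1 CPM against 6.47, 4.09 and 4.18 CPM, or 9.22% of control. CEMIP remained measurable in every shSQLE library, whereas AMTN had at most 2 counts.

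CCN3, a matricellular protein, was at 8.35, 10.4 and 13.6 CPM against 1.56, 2.25 and 1.39 CPM (16.1% of control). Its relatives CCN1 and CCN2 were called higher. SPOCK1, a testican proteoglycan, was among the members with the most counts, at 91, 146 and 142 CPM against 30.9, 27.2 and 39.4 CPM (25.8%). NID2, a basement membrane linker, was at 33.5%, and the secreted serine protease HTRA1 at 26.7%. PAMR1, a secreted protein with a peptidase-like domain, was at 15.1%. The shControl libraries spanned only 4.75 to 5.19 CPM for PAMR1, and 4.43 to 8.6 CPM for HTRA1.

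HS6ST3, a heparan sulfate 6-O-sulfotransferase, was at 3.93, 5.7 and 8.4 CPM against 0.498, 0.211 and 0.929 CPM, or 9.09% of control. ST8SIA4, which builds polysialic acid, was at 3.44, 5.91 and 7.94 CPM against 0.996, 0.775 and 1.7 CPM (20.1%). ST6GAL2, a sialyltransferase, was at 22.5% and HS3ST3B1, a second heparan sulfate sulfotransferase, at 39.3%. Within shControl, HS6ST3 and ST8SIA4 were both lowest in replicate 1 and highest in replicate 3. PODXL, a heavily sialylated surface mucin, was at 35.5%, and PAPPA, a metalloprotease that cuts IGF-binding proteins, at 34.7%. The matrix genes SNED1 (37.4%) and THSD4 (38.5%) completed the group.

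**Figure D3:**
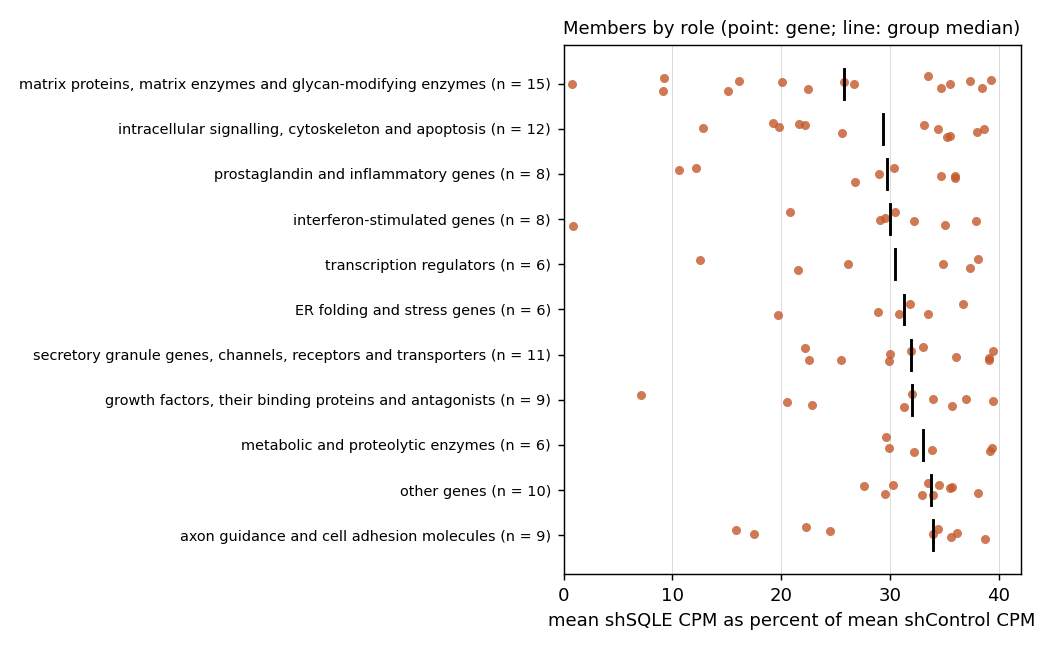
Mean shSQLE CPM as a percent of mean shControl CPM for each member (points), grouped by the role assigned to it, with the group median as a black line; vertical scatter within a row only separates points. Medians lie between 25.8% for the matrix and glycan group and 34% for axon guidance and adhesion, and each group spreads over more than the distance between those medians.

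Growth factors, their binding proteins and their antagonists gave 9 members. IGFBP5, which binds insulin-like growth factors, was at 29, 34.5 and 34.3 CPM against 8.39, 5.42 and 6.27 CPM (20.5% of control). IGFBP3, its relative and the main carrier of these factors in serum, was at 56.5, 47.1 and 46.5 CPM against 22.4, 14.2 and 10.4 CPM (31.3%), with the shSQLE libraries more spread than the shControl ones. The other measured genes of this family stood closer to control. IGFBP2, IGFBP4 and IGFBP7 were at 86.8%, 89.5% and 86.9% of control, IGFBP6 at 65.3% (log2 fold change -0.59, SE 0.33), none of them called, and IGFBP1 was near 0 in all libraries.

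Ligands and inhibitors of the TGF-beta superfamily were on both sides of the pathway. INHBA, the subunit of activin A, was at 31.5, 57.9 and 55.5 CPM against 10.7, 9.86 and 12.5 CPM (22.8%). GREM1, a secreted BMP antagonist, was at 188, 292 and 309 CPM against 96.7, 89.3 and 106 CPM (37%), and BMP2, a bone morphogenetic protein, was at 17.2, 24.3 and 21.3 CPM against 9.96, 6.2 and 8.67 CPM. PMEPA1, a feedback inhibitor of TGF-beta signalling, was at 34% of control. BMP2 and its antagonist GREM1, both chosen for being low, were thus lower together. Among listed genes outside the set, NOG, another BMP antagonist, was called higher, and FST and GDF15 lower. Further genes of this pathway were not looked up. APCDD1L, a relative of the Wnt inhibitor APCDD1, had the lowest ratio of the group, at 4.18, 4.65 and 6.72 CPM against 0.427, 0.211 and 0.464 CPM (7.09%). FGF2, a fibroblast growth factor, was at 35.7%, and EPHB6, an Eph receptor without kinase activity, at 32%.

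Genes of axon guidance and cell adhesion gave 9 members. SEMA3A, a secreted semaphorin that repels growth cones, was at 20.5, 39.5 and 39.3 CPM against 5.05, 4.02 and 6.66 CPM (15.8% of control). SEMA3C was at 1.88, 6.81 and 6.8 CPM against 1.28, 1.13 and 1.39 CPM and SEMA3B was at 35.6%. SEMA3C was well above its shSQLE level in shControl replicates 2 and 3 and only slightly above it in replicate 1. Of the other class 3 semaphorins, SEMA3D was at 89.4% and SEMA3F at 129% of control, neither called, and SEMA3E and SEMA3G stayed below 1 CPM. L1CAM, a neural adhesion molecule, was among the most tightly measured, at 21.1, 19.1 and 20.5 CPM against 4.05, 3.24 and 3.33 CPM (17.5%). The protocadherins PCDH7 (22.3%) and PCDH1 (34%), the guidance proteins DRAXIN and RELN (38.7% and 36.2%), and NGEF (34.4%), an exchange factor downstream of ephrin receptors, completed the group.

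Prostaglandin and inflammatory genes gave 8 members. PTGS2, cyclooxygenase-2, was at 83.6, 139 and 144 CPM against 16.6, 12.4 and 15.6 CPM (12.2% of control). PTGES, a prostaglandin E synthase that works with it, was at 17.5, 17.7 and 13.8 CPM against 5.48, 4.79 and 4.64 CPM (30.4%), and AKR1C3, an aldo-keto reductase that makes prostaglandin F, was at 16.5, 14.9 and 15 CPM against 4.12, 4.58 and 4.72 CPM (29%). SLCO2A1, the prostaglandin uptake transporter, was at 6.63, 7.3 and 6.42 CPM against 1.71, 2.11 and 1.63 CPM (26.8%). Of these, AKR1C3 and SLCO2A1 had shControl libraries that almost coincided. PLA2G4A, the phospholipase that releases arachidonic acid, stood just outside the set at 18.2, 30.7 and 33.6 CPM against 10.7, 9.65 and 12.2 CPM.

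None of the other tested genes of the route was called lower. PTGES2 and PTGES3, alternative prostaglandin E synthases, were at 107% and 110% of control (log2 fold changes 0.12, SE 0.25, and 0.17, SE 0.09), and TBXAS1, thromboxane synthase, was at 81.1% with overlapping groups. The receptor PTGER4 was at 100% of control and PTGS1, the constitutive cyclooxygenase, had no count in any library.

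**Figure D4:**
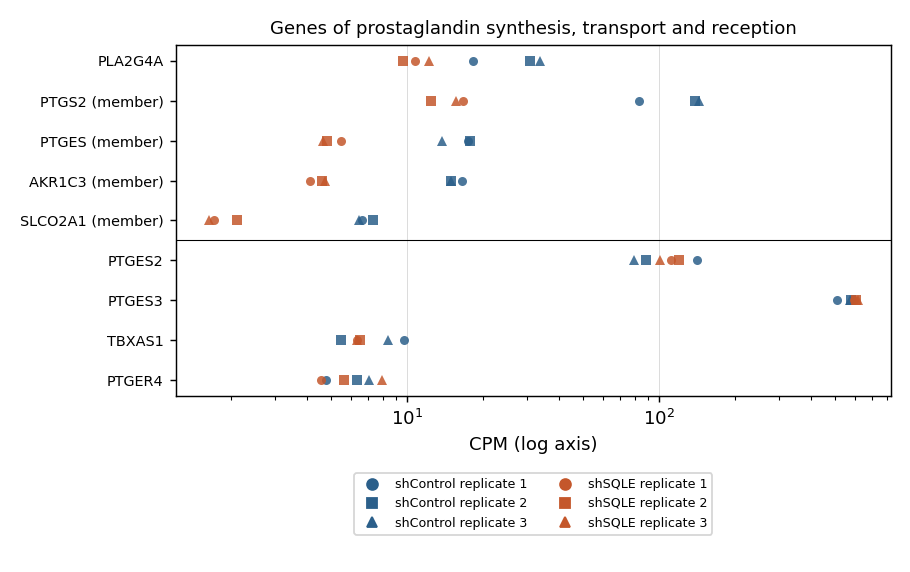
CPM on a log axis in each library for genes of prostaglandin synthesis, transport and reception, shControl in blue and shSQLE in orange, with members and PLA2G4A above the line and 4 other measured genes below it. Above the line the groups do not overlap; below it they do in TBXAS1, PTGES2 and PTGER4, and the shSQLE points of PTGES3 lie just right of its shControl points.

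TNFRSF11B, osteoprotegerin, the decoy receptor for RANKL in bone, was at 6.14, 11.3 and 11.7 CPM against 0.853, 0.986 and 1.24 CPM, or 10.6% of control. TNFAIP3, an inhibitor of NF-kB signalling, was at 36%, as was NFKBIZ, a nuclear co-regulator of NF-kB. The 4 members in the list of cytokines, chemokines and NF-kB targets were TNFRSF11B, PTGS2, TNFAIP3 and NFKBIZ. Of the 52 tested genes of that list 16 were called lower, 8 of them removed by symbol, and IL1A and PTX3 were called higher. Over all genes tested, 2.84% were called lower and 0.369% higher.

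Interferon-stimulated genes whose symbols lacked the removed prefixes gave 8 members. KLHDC7B, a kelch-repeat gene, was at 13.3, 12.4 and 9.62 CPM against 0, 0.211 and 0.0774 CPM (163, 178 and 126 counts against 0, 3 and 1), which put it at the floor of 3 counts and at least 53.8-fold lower. DDX60, an RNA helicase of the antiviral response, was at 26.2, 53.1 and 53.8 CPM against 9.39, 7.68 and 10.6 CPM (20.8% of control). KLHDC7B therefore stood with AMTN, apart from the other members, which were between 7.09% and 39.5% of control.

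DDX60L, the neighbouring paralogue of DDX60, was at 15, 28.1 and 28.9 CPM against 5.69, 8.31 and 7.97 CPM (30.5%). SAMD9 and SAMD9L, adjacent restriction factors of poxviruses, were at 32.2% and 29.5%, and APOL6 at 29.1%. ZC3HAV1, the zinc-finger antiviral protein, was among the members with the most counts, at 159, 198 and 195 CPM against 66.7, 58.8 and 68.3 CPM (35.1%). PMAIP1, the BH3-only protein NOXA, had the most counts of all members, at 197, 352 and 369 CPM against 131, 101 and 115 CPM (37.9%), and also the highest level per transcript length (161 CPM per kb in shControl, 61.1 in shSQLE). Because DDX60 and DDX60L, and SAMD9 and SAMD9L, are similar pairs, reads could have been shared between them. In 7 of the 8 members of this group shControl replicate 1 lay below the other shControl libraries, as it did in 54.6% of all genes tested, and DDX60 stood at 17.3% of control without it.

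The promoters of the DDX60, DDX60L and SAMD9 genes carry the core of the interferon-stimulated response element, here GAAA followed by any pair of bases and GAAA again. They are shown as the 3 of 7 interferon-stimulated members with a RefSeq promoter that hold the motif. KLHDC7B, PMAIP1, SAMD9L and ZC3HAV1 had no match in theirs. The sequences come from RefSeq, build GRCh38.p14, 5′ to 3′ on the gene's strand, with the motif in capitals, and they end before the start site.
DDX60 (chr4:168318781-168318855, minus strand): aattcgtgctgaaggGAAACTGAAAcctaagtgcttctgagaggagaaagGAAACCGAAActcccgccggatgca
DDX60L (chr4:168480518-168480587, minus strand): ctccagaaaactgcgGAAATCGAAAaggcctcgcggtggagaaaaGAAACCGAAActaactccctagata
SAMD9 (chr7:93118091-93118130, minus strand): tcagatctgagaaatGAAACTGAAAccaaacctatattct

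These windows end 28, 25 and 111 bases before the start site, and DDX60 and DDX60L hold 2 copies each where SAMD9 holds 1. The copies nearer the start site in DDX60 and DDX60L have the same letters, as do the first copy of DDX60 and the copy of SAMD9. Across the set the motif was not frequent. Of the 81 members with a RefSeq promoter (250 bases before to 50 after the start, 128 windows), 5 held it on either strand (6.17%), against 3.91% of 10124 tested genes with a promoter. The other 2 were EDNRA and GNG2, which are not in the interferon list. Other motifs were searched on both strands in the same windows, and none of them contains another. The AP-1 site TGANTCA was in 12.3% of the members and 7.1% of tested genes, the TATA box TATAAA in 13.6% and 8.25%, the GC box GGGCGG in 69.1% and 78.6%, and the NF-kB site in 11.1% and 9.14%. The CCAAT box was in 48.1% and 43.5%, the XBP1 and ATF6 core GACGTG in 9.88% and 13.6%, the TEAD site GGAATG in 14.8% and 15%, and the sterol-response letters TCACNCCAC in 0 of 81 members and 1.39% of tested genes. A match in letters is a description and not a bound site.

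Genes of ER folding and stress gave 6 members. ERO1B, an oxidase for disulfide formation, was at 10.6, 18.3 and 20.2 CPM against 3.06, 2.82 and 3.79 CPM (19.7% of control). DNAJB9, a cochaperone of the ER chaperone BiP, was at 14.8, 23 and 19.5 CPM against 5.33, 5.21 and 6.04 CPM (28.9%), and NUCB2, a calcium-binding protein of the secretory pathway, was at 107, 142 and 151 CPM against 42.7, 41.6 and 43.2 CPM (31.8%). In NUCB2 the shSQLE libraries lay close together, with an SD of 0.831 CPM (n = 3). CRELD2, an ER-resident protein induced by ER stress, was at 36.7%, and the stress transcription factors ATF3 and DDIT3 (CHOP) were at 30.8% and 33.5%. In the list of ER folding and unfolded protein response genes, 21 of 75 tested genes were called lower and 0 higher, with a median log2 fold change of -0.51. In the list of integrated stress response and amino acid genes 3 of 33 were called lower (ATF3, DDIT3 and GDF15) and 2 higher (PHGDH and SLC7A5). The median log2 fold change of that list was 0.23. Over all genes tested, 2.84% were called lower and 0.369% higher.

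Secretory granule genes, channels, receptors and transporters gave 11 members. PTPRN, a membrane protein of dense-core granules known as the autoantigen IA-2, was at 21, 18.7 and 14.8 CPM against 4.91, 3.95 and 3.48 CPM (22.6%). HID1, needed for granule maturation, was at 41.8, 30.2 and 26.8 CPM against 8.18, 7.19 and 6.58 CPM (22.2%), and SCG5, the chaperone of prohormone convertase 2, was at 5.08, 5.21 and 6.34 CPM against 1.14, 1.48 and 1.63 CPM (25.5%). With RAB27B, a GTPase of granule docking, the set held 4 genes of regulated secretion. Genes of this kind outside the set were not looked up. The receptors EDNRA (for endothelin), NTSR1 (for neurotensin) and CHRNA9 (for acetylcholine) were at 29.9%, 39.1% and 36.1%. NTSR1 had the most counts of these, at 108, 80.2 and 77.1 CPM against 38.3, 32.7 and 32.8 CPM. The transporters SLC16A6 and SLC7A8 were at 30% and 31.9%, the calcium channel subunit CACNG6 at 33% and SERINC2 at 39.1%.

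Transcription regulators gave 6 members. EGR2, an immediate-early zinc-finger factor, was at 5.73, 5.91 and 6.87 CPM against 0.924, 0.845 and 0.542 CPM (12.5% of control). MSC (musculin), a basic helix-loop-helix repressor, was at 19.7, 14 and 10.2 CPM against 3.56, 3.24 and 2.63 CPM (21.5%). PRRX1, a homeobox factor of limb mesenchyme, was at 22.1, 38 and 42.2 CPM against 9.1, 8.74 and 8.9 CPM (26.1%). TBX3, a T-box factor of limb development, was at 34.9%, the zinc-finger gene ZNF469 at 37.4% and NR1D1, the circadian repressor REV-ERB alpha, at 38.1%. Without shControl replicate 1 the ratio of MSC rose to 26%, since that library held its highest value.

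Intracellular signalling, cytoskeleton and apoptosis gave 12 members. BMF, a BH3-only protein that promotes apoptosis, was at 25.5, 24.4 and 24.5 CPM against 5.9, 4.79 and 5.42 CPM (21.6% of control). With PMAIP1 it made a pair of BH3-only genes in the set. Genes of this family outside the set were not looked up. MISP, an actin-binding protein of spindle positioning, was at 5.9, 4.31 and 5.04 CPM against 0.711, 0.704 and 0.542 CPM (12.8%). PKIB, an inhibitor of protein kinase A, was at 5.4, 5.84 and 5.58 CPM against 1.07, 1.34 and 0.929 CPM (19.8%), and LURAP1L was at 4.99, 8.82 and 7.94 CPM against 1.42, 0.986 and 1.78 CPM (19.2%). MISP, PKIB and LURAP1L were low in counts, and PKIB varied least of the 3 in shControl.

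MYLIP, the ubiquitin ligase IDOL that directs the LDL receptor to degradation, was at 8.68, 12.4 and 12.8 CPM against 2.35, 3.73 and 5.96 CPM (35.5%), with the shSQLE libraries more than 2-fold apart. It and PTGES were the only members in the list of cholesterol and lipid genes. In that list 8 of 67 tested genes were called lower and 0 higher, against 2.84% and 0.369% of all genes tested. SHROOM2 (22.2%), ADAP1 (25.6%), GNG2 (33.1%), S100A4 (34.4%), RASGRF2 (35.2%), MYO15B (38%) and DUSP10 (38.6%) completed the group. Metabolic and proteolytic enzymes gave 6 members (PRSS3, TMTC1, ALDH3B1, CTSO, USP43 and ASS1), which lay between 29.6% (the trypsinogen gene PRSS3) and 39.4% (ASS1, argininosuccinate synthase, at 54.5, 38.9 and 41.1 CPM against 19.1, 18.9 and 15). The 10 members without a shared role, TRANK1, HHIPL2, TMEM154, PARM1, PINLYP, JAKMIP2, SMIM14, TMEM200A, CCDC149 and TMEM50B, lay between 27.6% (TRANK1) and 38.1% (TMEM50B).

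The other hand-written lists were counted in the same way, against the background of 2.84%. All lists were chosen with earlier results of these data known, and most hold members picked for being low. No enrichment is read from the counts. In the extracellular matrix list 18 of 70 tested genes were called lower and 2 higher, among them 4 members, with 11 removed by symbol. Matrix enzymes and inhibitors had 14 of 63 lower and 2 higher, growth factors and receptors 16 of 83 lower and 2 higher, and adhesion and surface receptors 10 of 59 lower and 1 higher. Interferon-stimulated genes had 31 of 83 lower and 0 higher, with 13 of the 31 removed by symbol and a median log2 fold change of -0.65, the lowest of the lists. The lists of antigen presentation, complement, and YAP and TEAD targets held no member. They had 1 of 19, 1 of 12 and 1 of 21 genes lower. Antigen presentation and complement had 0 higher. YAP and TEAD targets had 2 higher (CCN1 and CCN2) and a median log2 fold change of 0.11. Proliferation genes had 0 of 30 lower and 1 higher.

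Chromosomes 4 and 7 held 12 members each, 12% of the set, where 3.69% and 4.69% of the tested genes lie. On both chromosomes a neighbouring pair of paralogues contributed, DDX60 with DDX60L (37.9 kb apart) and SAMD9 with SAMD9L (12 kb apart), with no coding gene between. SCG5 and GREM1 were neighbours on chromosome 15, 20.9 kb apart on the same strand, and NID2 and GNG2 on chromosome 14 were 25.5 kb apart with 1 gene between. The use of strand in counting is not given in the sources used here, and 16 members overlap a coding gene on the opposite strand, among them CEMIP with MESD, DDIT3 with MARS1, FGF2 with NUDT6, CRELD2 with ALG12 and NR1D1 with THRA, so reads of both partners could have been joined. On the same strand, 6 members overlap a coding gene, L1CAM, SCG5 and NFKBIZ included, and DDIT3 is in both counts.

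Canonical transcripts of the members (GENCODE v44) had a median length of 4100 bases against 3433 in the tested genes, 7 exons against 9, and a GC content of 49.2% against 48.4%. Over the 100 members, which share the same 6 libraries, GC content had r = -0.05 and rho = 0.10 with the log2 fold change. The rule chose the members by that same difference, so its narrow range among them can hide a relation. Over 12447 genes tested the values were r = 0.03 and rho = 0.08. GC content was related to the position of shControl replicate 1. That library was the lowest of the shControl group in 63 members and the highest in 32, where it was the lowest in 54.6% and the highest in 37.8% of all genes tested. The median GC content of these members was 44.2% and 59.5%. Over the members the correlation of GC content with log2 of replicate 1 over the mean of replicates 2 and 3 was 0.78 by both Pearson's and Spearman's measures, beside 0.72 and 0.74 over 12447 genes tested.

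**Figure D5:**
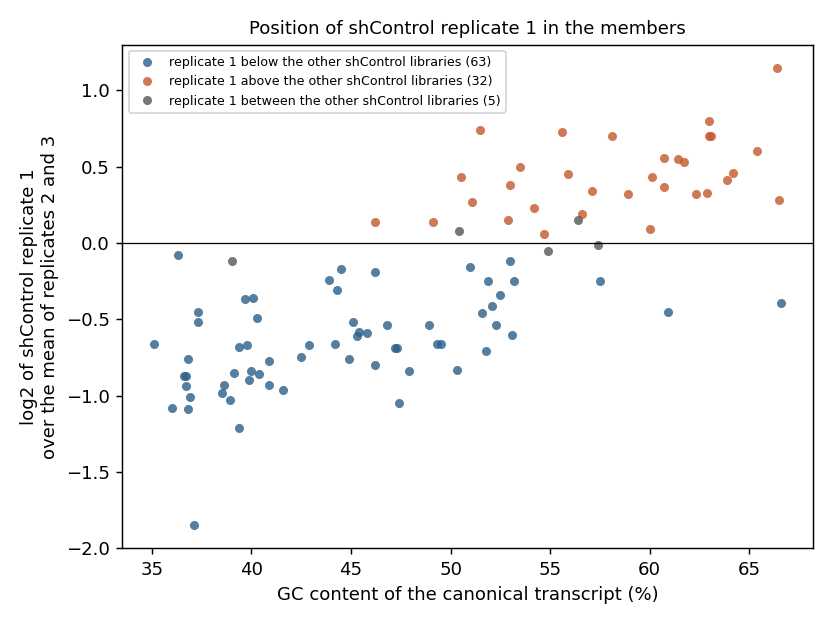
GC content of the canonical transcript (%) against log2 of shControl replicate 1 over the mean of shControl replicates 2 and 3 for the 100 members, coloured by whether replicate 1 is below (63), above (32) or between (5) the other shControl libraries. The points rise from left to right, with most members under 45% GC below 0 and most above 55% GC above 0.

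Without shControl replicate 1 the median share of control moved from 31.9% to 30.1%, and 66 members had a lower share than before. PTGS2 stood at 10.5%, SEMA3A at 13.3% and PMAIP1 at 32.1% in that case. All 100 members were then called lower, where 18.3% of all genes tested were. Leaving out shSQLE replicates 1, 2 or 3 left 49, 48 and 48 members called, against 0.835%, 0.827% and 0.801% of all genes, and leaving out shControl replicates 2 or 3 left 65 and 82, against 1.23% and 1.58%. Of the 100 members, 42 were called in all 6 of these fits. The matching share of all genes was not counted, and the same contrast chose the members, so nothing is read from that number. SEMA3C, JAKMIP2, MYLIP, RAB27B, FGF2 and EDNRA were among the 15 missed in 5 of them. The part of the GC-dependent shift in these changes was not tested.

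The 4 published SQLE hairpins were also searched for 7-base seed matches (bases 2 to 8) in the 3′ untranslated regions of the canonical transcripts, since hairpins can act on other messages through such sites. Sites were found in 17%, 23%, 14% and 21% of the members for hairpins 1 to 4, where 19.1%, 19.4%, 10% and 15.9% of tested genes held one, and 49% of members against 41.9% of tested genes had a site for any of them. The searched regions had a median length of 1497 bases in the members and 1362 in the tested genes, and the shares were not adjusted for length. The median log2 fold change of members with a site lay between -1.63 and -1.50, and without one between -1.63 and -1.61. Which hairpin the libraries carried is not given, and its part in the result was not tested.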

How the data were processed

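Poly(A) RNA of U2OS cells was sequenced as paired-end reads on an Illumina NovaSeq. Per the submitters' processing notes, reads were processed with fastp 0.20.0, STAR 2.7.9a and featureCounts 2.0 against hg38, and the authors deposited the resulting count of reads per gene without normalization. The annotation release and strand setting are not given in the sources used here. Of 19937 identifiers, 32 matched no symbol and 3942 had no count.

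The rule used CPM from column totals. Counts were tested with edgeR 4.0.16 in R 4.3.3 (TMM, filterByExpr, quasi-likelihood test, 12450 genes, common dispersion 0.0267, adjusted p 0.05). In simulated counts the procedure called 92% of 200 changed genes, and 6.12% of its calls were on unchanged genes. The simulation used the common dispersion and no shift of a single library, so it does not cover the deviation of shControl replicate 1. DESeq2 1.42.0, other scalings, other count filters, a replicate block and the omission of each library served as alternatives. p-values measure only the spread between these libraries. A count of 3 or fewer was taken as the floor, which covers counting error only.

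Genes and lists were chosen with earlier results of these data known. Values were given for the 20 lowest ratios, the 5 members with most counts, up to 4 members per list, 3 genes either side of the limit, SQLE and markers. Role groups, families (prostaglandin, semaphorin, IGF-binding) and members named beyond that rule were chosen after their values were seen. The values of 1 member are not reported here.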

Additional observations from a re-analysis of the deposited data

How the results depend on the processing

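The median log2 fold change of the members stayed between -1.67 and -1.59 under every alternative run, and all members fitted were below 0 in each, a direction that their selection fixes. By the reported test 400 genes were called. DESeq2 called 714, 556 of them lower, with all 100 members among those. Under a replicate block 396 genes were called, 362 of them lower, with 99 members among those. The deviations of same-numbered libraries from their group means had correlations of 0.138, -0.433 and 0.543. Those of differently numbered libraries ran from -0.595 to 0.542. With 3 libraries per group these values depend on each other, so they cannot decide whether the numbers pair the samples. Under the other scalings and filters, between 87 and 98 members were called, where 263 to 368 of all genes tested were called lower. Requiring 10 counts in every library dropped 7 members from testing.

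Leaving out 1 library moved the calls most. Genes called ranged from 109 without shSQLE replicate 1, 2 or 3 to 4264 without shControl replicate 1, with 163 and 211 without shControl replicates 2 and 3. Members called ranged from 48 to 100, and listed genes called lower, 136 with all libraries, from 53 to 293. The fits have fewer samples, and the cause was not tested further. Over all 100 members, 208 of the 600 results without 1 library were not called. For 44 members, those of lowest ratio overall or in a list, with most counts or next to the limit, 56 of 521 results under all alternatives lost the call and none changed sign.

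With a minimum level of 2 or 10 CPM in place of 5, 57 and 63 of the 100 members were kept, since other genes entered or members left. Other scalings kept 98, and leaving out 1 library kept 88 to 95. Depth limits most the 7 members with at most 15 counts in every shSQLE library (AMTN, KLHDC7B, APCDD1L, HS6ST3, EGR2, MISP and PAMR1).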
